A study of Mus musculus with 12 samples.

Results

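The mouse microRNAs miR-204 and miR-211 were followed in the retina and the sclera of mice with form-deprivation myopia. The members were all array names that begin with mmu-miR-204- or mmu-miR-211-, and 2 of the 696 mouse miRNA names on the arrays met this rule, mmu-miR-204-5p and mmu-miR-211-5p. The animals were C57BL/6J mice aged 34 days at dissection. The myopic eye of each mouse had carried a frosted plastic diffuser, which blurs the retinal image, for the last 10 days, and the untreated fellow eye was the control. Control retina, myopic retina, control sclera and myopic sclera were each represented by 3 arrays, and each array by RNA pooled from 3 eyes according to the methods (the labels speak of single mice). The lens was removed before dissection, and the sources used here do not state whether pigment epithelium or choroid stayed with the retina or with the sclera.

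MicroRNAs are short RNAs that lower the output of messenger RNAs carrying a match to their seed, the bases near their 5′ end. miR-204 and miR-211 form a single seed family and are known as abundant miRNAs of pigmented cells, above all the retinal pigment epithelium, where they help to keep the cells differentiated and the epithelial barrier closed. Each is processed from an intron of a gene for a TRPM cation channel. miR-204 lies in Trpm3, and miR-211 lies in Trpm1, a gene used in melanocytes and in the ON bipolar cells of the retina. The melanocyte regulator MITF is known to act on both host genes. The host transcripts were not measured on these arrays.

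The mature sequences show how close the members are, and RefSeq (build GRCm38.p6) gives them as follows, 5′ to 3′, with the seed (bases 2 to 8) in capitals.
miR-204-5p: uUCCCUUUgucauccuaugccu
miR-211-5p: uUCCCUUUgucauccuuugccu
They were identical at 21 of 22 bases and shared the seed. The single difference was A17U (base of miR-204-5p, position from its 5′ end, base of miR-211-5p), outside the seed. Of 1679 mature mouse miRNAs in the RefSeq table, 3 carried this seed, and the remaining one, mmu-miR-7670-3p, was not a name on the arrays.

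The hairpins show how much less the rest of the precursors has in common, with both mature arms in capitals.
Mir204: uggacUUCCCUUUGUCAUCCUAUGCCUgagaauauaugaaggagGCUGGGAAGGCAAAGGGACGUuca
Mir211: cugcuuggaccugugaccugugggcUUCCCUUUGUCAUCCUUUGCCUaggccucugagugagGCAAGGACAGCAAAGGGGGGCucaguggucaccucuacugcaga
The Mir204 hairpin of 68 bases lies at chr19:22750605-22750672, on the plus strand and inside the interval of Trpm3 (chr19:22137797-22995410). The Mir211 hairpin of 106 bases lies at chr7:64205806-64205911, on the plus strand and inside Trpm1 (chr7:64153835-64269772). The 3p arms had no name on the arrays.

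The array probes have to separate these miRNAs by that single base, so they are shown with it in capitals.
miR-204-5p, 20 bases: aggcaTaggatgacaaaggg
miR-204-5p, 19 bases: aggcaTaggatgacaaagg
miR-211-5p, 22 bases: aggcaAaggatgacaaagggaa
miR-211-5p, 21 bases: aggcaAaggatgacaaaggga
miR-211-5p, 20 bases: aggcaAaggatgacaaaggg
miR-211-5p, 19 bases: aggcaAaggatgacaaagg
Every probe was the exact reverse complement of its own miRNA from the 3′ end inward. Between the probes of 20 bases the difference was T6A (miR-204 probe, position from the probe's 5′ end, miR-211 probe). The array files place the miR-204 probe of 20 bases at chr19:22825102-22825121 and the miR-211 probe of 22 bases at chr7:71350717-71350738 of build mm9. Cross-hybridization between the members was not tested.

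Both miRNAs were among the well-measured names. They were detected on all 12 arrays, as were 246 of the 696 names, while 443 names were detected on at least 1 array. Detection here is the scanner software's own flag, given when a probe signal exceeds 3 times its error. All 240 spots of each miRNA were well above background and 0 were saturated. The spread between repeated spots of a probe on an array had a median coefficient of variation of 3.49% for miR-204 and 2.68% for miR-211. The arrays themselves were less even. From 353 to 401 miRNAs were detected on retina arrays and from 274 to 317 on sclera arrays, and the summed signal of an array ran from 200662 on control sclera 3 to 832784 on myopic retina 2. Each slide held 1 array of each group, and a group kept its position from slide to slide, so a position effect and a group effect cannot be told apart.

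miR-204 gave the brighter signal of the pair on every array, although levels of different miRNAs cannot be compared because their probes differ. Its total gene signal, the summed intensity of its detected probes before normalization, was 11449, 12740 and 16387 on control retina arrays 1, 2 and 3. It was 11487, 14995 and 11633 in the myopic retina. It was 4080, 5359 and 2935 in the control sclera. The myopic sclera arrays gave 2640, 2203 and 2909. All 6 retina arrays lay above all 6 sclera arrays, which 56.9% of the 443 miRNAs detected at least once did in one direction or the other. Control and myopic arrays overlapped in the retina, and in the sclera the dimmest control array (2935) and the brightest myopic array (2909) were nearly equal. How many of all miRNAs separate the sclera groups before normalization was not counted.

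miR-211 showed the same order of tissues with a wider gap. Its total gene signal was 6640, 7024 and 7491 in the control retina. It was 6761, 8642 and 6840 in the myopic retina. It was 1635, 1793 and 887 in the control sclera. It was 1106, 935 and 964 in the myopic sclera. Again no sclera array reached a retina array, and in the sclera control and myopic arrays overlapped. Control sclera 3, the dimmest array of the series, had the lowest miR-211 signal of all.

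**Figure D1:**
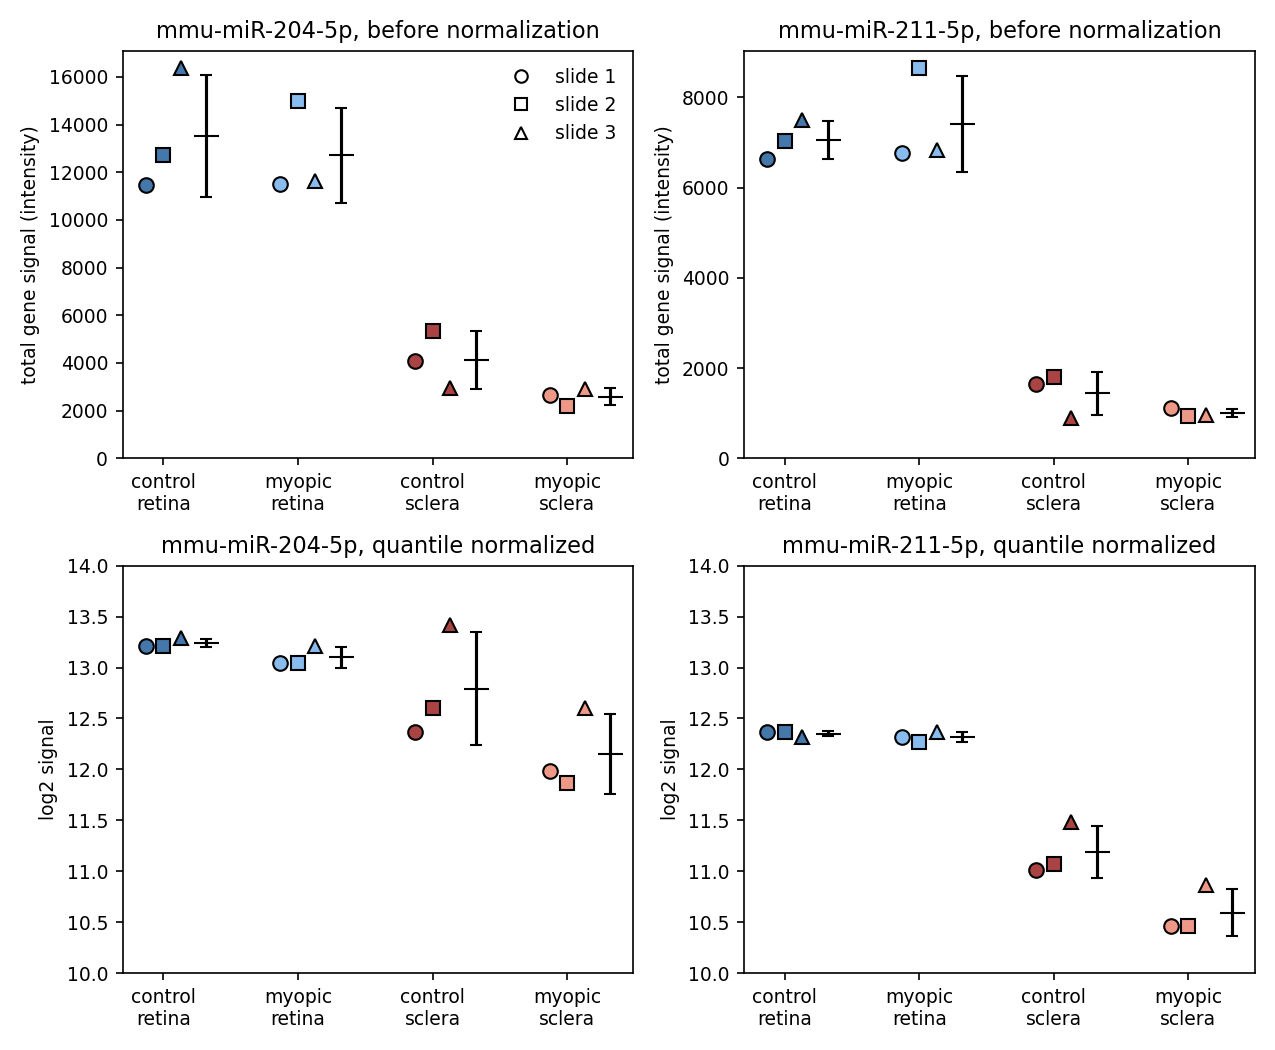
Signal of mmu-miR-204-5p (left) and mmu-miR-211-5p (right) on each array, as total gene signal before normalization (top) and as log2 signal after quantile normalization (bottom, axis from 10 to 14). Symbols mark the slide, and the bar to the right of each group is the mean ± SD of its 3 arrays. The triangle of control sclera lies lowest in its group before normalization and highest after it.

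The different brightness of the arrays was removed by quantile normalization, which gives all arrays the same distribution of values, so that a value then reflects the rank of a miRNA on its array. On this log2 scale miR-204 averaged 13.24 ± 0.043 (SD, n = 3) in the control retina and 13.10 ± 0.10 in the myopic retina. It averaged 12.79 ± 0.55 in the control sclera and 12.15 ± 0.40 in the myopic sclera. The order was control retina, myopic retina, control sclera and myopic sclera, and each group overlapped with the next in this order. The control sclera arrays spread from 12.36 to 13.42, and the highest of them, control sclera 3, exceeded every retina array.

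For miR-211 the groups of the sclera stood clear of the rest. It averaged 12.35 ± 0.024 (SD, n = 3) in the control retina and 12.32 ± 0.046 in the myopic retina, and these overlapped. It averaged 11.19 ± 0.26 in the control sclera, with arrays from 11.02 to 11.48. It averaged 10.59 ± 0.23 in the myopic sclera, with arrays from 10.46 to 10.86. The retina arrays therefore lay above the sclera arrays without overlap, which 55.1% of the 443 miRNAs did in one direction or the other.

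The question of the study, whether form deprivation changes these miRNAs, was asked in the retina first. Neither member was called there. Tests were made with limma over the 443 miRNAs detected at least once, with Benjamini-Hochberg adjustment, and a call required an adjusted p under 0.05 together with a difference of 2-fold or more, which 0.226% of them reached in the retina. miR-204 differed by -0.14 on the log2 scale (SE 0.28, 95% interval -0.76 to 0.48, adjusted p = 0.86). It was lower in the myopic retina on all 3 slides, as were 34.3% of the miRNAs tested. miR-211 differed by -0.03 (SE 0.16, 95% interval -0.39 to 0.33, adjusted p = 1) and was lower on 2 of 3 slides. Its sign turned with the processing. Both intervals leave out a 2-fold change in either direction, although scaling to the 75th percentile of all probes moved the differences to -0.91 for miR-204 and -0.76 for miR-211, which were not called either.

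In the sclera both miRNAs had lower values in the myopic eyes, but neither passed the adjusted test. Of the 443 miRNAs 0% were called here by limma, with 13 at an unadjusted p under 0.05, both members among them. miR-211 differed by -0.60 (SE 0.16, 95% interval -0.96 to -0.24, unadjusted p = 0.0044, adjusted p = 1). On the quantile-normalized scale the difference on slides 1, 2 and 3 was -0.56, -0.61 and -0.62, and the groups did not overlap. Groups without overlap were found for 5.42% of the miRNAs tested, and 7.22% were lower in the myopic sclera on all 3 slides. Before normalization miR-211 was lower in the myopic sclera on slides 1 and 2. On slide 3 it was higher there, with a signal of 964 against 887 in the control sclera. miR-204 differed by -0.64 (SE 0.28, 95% interval -1.27 to -0.02, unadjusted p = 0.044, adjusted p = 1). Its differences by slide were -0.38, -0.74 and -0.81, and its groups overlapped. The spread in the fit was shared by all groups, whereas the SD of either miRNA was larger in the sclera than in the retina. For miR-204 the SD was 0.55 in the control and 0.40 in the myopic sclera, against 0.043 and 0.10 in the retina. The sclera intervals of both miRNAs are therefore narrower than the spread of the sclera arrays alone would make them. Over the other processing alternatives, apart from leaving out arrays, the difference ran from -0.66 to -0.39 for miR-204 and from -0.60 to -0.24 for miR-211, and it was never called.

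Control sclera 3 carried much of the miR-204 difference. Without that array it was -0.33 on the log2 scale, and that of miR-211 was -0.45. The same array stood apart in miRNAs of neural retina. The log2 of the summed level of 7 such miRNAs was 13.87, 13.90 and 11.39 in control sclera 1, 2 and 3. It was 13.48, 12.54 and 13.62 in the myopic sclera, against 17.51 to 17.59 in the retina. Such a sum rests mostly on the brightest miRNAs. All 7 were detected on at least 1 array of each sclera group. Whether retinal RNA in the sclera samples has a part in the levels of miR-204 and miR-211 there was not tested. In tissue pools such as these, fewer cells of a type and less RNA per cell cannot be told apart.

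The change was compared between the tissues directly. The change in the retina minus that in the sclera was 0.50 for miR-204 (SE 0.39, adjusted p = 0.46, limma). It was 0.57 for miR-211 (SE 0.23, unadjusted p = 0.033, adjusted p = 0.38). Neither was called, and 0.226% of the miRNAs tested were. With array weights the difference of miR-211 was 0.42 with an adjusted p of 0.030 (limma), short of the fold threshold, and over all alternatives its adjusted p ran from 0.030 to 1.

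**Figure D2:**
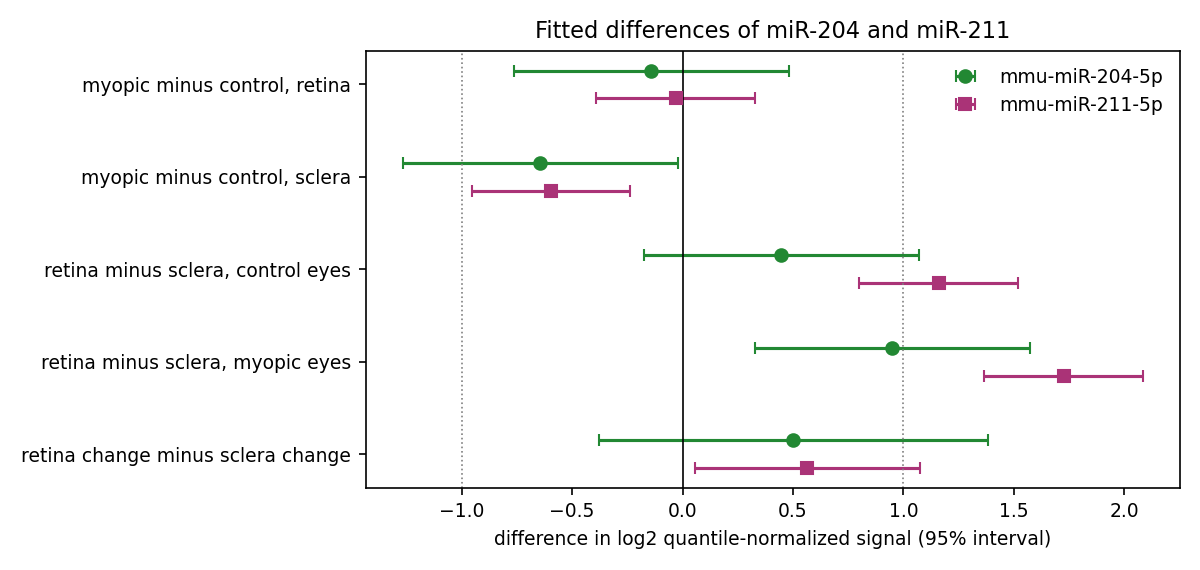
Fitted log2 differences of mmu-miR-204-5p (circles) and mmu-miR-211-5p (squares) in the 5 comparisons, with 95% intervals from limma. Dotted lines mark a 2-fold difference, and the miR-211 tissue differences of 1.16 and 1.72 are the values beyond it.

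Between the tissues miR-211 was higher in the retina in both kinds of eye. In control eyes it was 2.23-fold higher (log2 difference 1.16, SE 0.16, limma adjusted p = 1.4e-04), a call made in this direction for 27.5% of the miRNAs tested. In myopic eyes it was 3.31-fold higher (1.72, SE 0.16, adjusted p = 7.0e-06), a call made in this direction for 32.5%. The difference was positive on all 3 slides in both. A single sign on all slides also holds for the 55.1% of miRNAs tested whose retina and sclera arrays did not overlap. The call was lost with scaling to the 75th percentile of all probes (0.92 in control and 0.51 in myopic eyes, limma adjusted p = 0.030 and 0.18) and with the 19-base probe alone (0.64 and 0.74).

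miR-204 was not called in either tissue comparison. In control eyes it differed by 0.45 (SE 0.28, adjusted p = 0.19, limma), and on slide 3 by -0.13. Without control sclera 3 the difference was 0.77 with an adjusted p of 0.011, below a 2-fold change. In myopic eyes it was 1.93-fold higher in the retina (0.95, SE 0.28, adjusted p = 0.012), which passed the p threshold and fell short of the fold threshold. It was higher on all 3 slides, and its retina and sclera arrays did not overlap, as for 78.6% of the miRNAs tested. Without sclera myopia 3 it was 1.18, which is a call.

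The size of these tissue differences depended on how the arrays were scaled. The median difference between retina and sclera over the miRNAs detected on all arrays was -0.24 in control eyes and -0.32 in myopic eyes after quantile normalization, and 1.17 and 1.58 without normalization. Relative to that median miR-211 differed by 1.40 in control eyes, and by 0.88 to 1.54 over the alternatives tried, apart from leaving out arrays. Relative to the median miR-204 remained higher in the retina under each of these alternatives. It was higher by 0.27 to 0.93 in control eyes and by 0.72 to 1.42 in myopic eyes. Without that correction its sign in myopic eyes turned under scaling to the 75th percentile of all probes. As a share of the summed signal of its array, a scale chosen after the data were seen, miR-204 made up 1.68% to 2.29% in the retina and 0.78% to 1.46% in the sclera. miR-211 made up 0.99% to 1.16% in the retina and 0.33% to 0.47% in the sclera. How many of all miRNAs separate the tissues on this scale was not counted.

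Each probe gave the same picture before normalization. The miR-204 probes of 20 and 19 bases were higher in the control retina than in the control sclera by 1.73 and 1.81 on the log2 scale. The 4 miR-211 probes were higher by 2.35 to 2.39. In myopic eyes these differences were 2.29 and 2.31 for miR-204 and 2.88 to 2.93 for miR-211. The 20-base probe supplied 82.1% to 84.6% of the miR-204 signal on every array, and the 22-base probe 42.3% to 43.3% of that of miR-211, so the mix of probes was nearly constant across tissues.

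**Figure D3:**
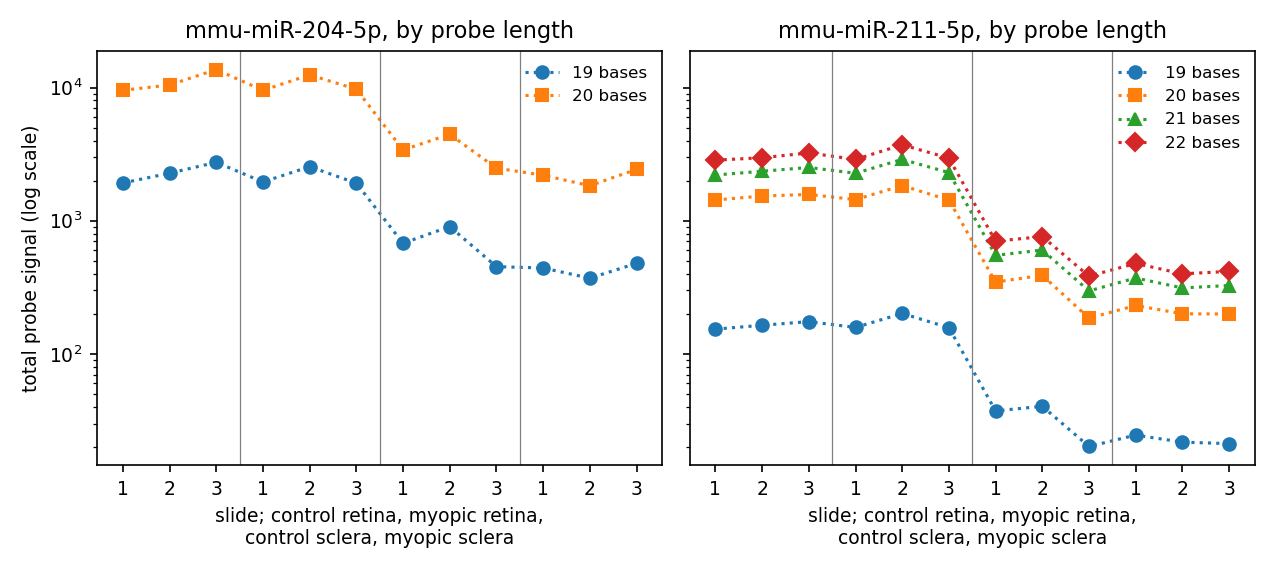
Total probe signal (log scale) of each probe of mmu-miR-204-5p (left) and mmu-miR-211-5p (right) on the 12 arrays, in the order control retina, myopic retina, control sclera and myopic sclera with the slide number below. The probes of a miRNA run parallel, and all drop from retina to sclera.

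The drop from retina to sclera was steeper for miR-211 than for miR-204. Both signals come from the same array, so their ratio before normalization needs no scaling between arrays. The miR-211 signal was 45.7% to 58.9% of the miR-204 signal on the 6 retina arrays and 30.2% to 42.4% on the 6 sclera arrays. Their difference, miR-211 minus miR-204 on the quantile-normalized log2 scale, was -0.83 ± 0.09 (SD, n = 6) in the retina and -1.58 ± 0.22 (n = 6) in the sclera. The tissues differed by 0.74 with no overlap (exact two-sided permutation test, p = 0.0022, the smallest that 924 arrangements give). This test treats the 12 arrays as independent, although by their labels they come from both eyes under 3 mouse numbers. Each number is taken here as a set of mice, since the methods describe pools. Before normalization the tissues differed by 0.60 with the same p in the exact permutation test.

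The contrast was present in both kinds of eye. In control eyes alone it was 0.71 and in myopic eyes alone 0.78 (exact permutation test, p = 0.1 for each, the smallest that 3 against 3 arrays allow). With arrays paired by slide it was 0.74 as well (exact sign-flip permutation test, p = 0.031, the smallest possible), which still takes fellow eyes as independent. With both eyes of a set averaged, it was 0.65, 0.66 and 0.93 in sets 1, 2 and 3 (exact sign-flip permutation test over 3 sets, p = 0.25, the smallest they allow), an alternative added after the data were seen. The size of the ratio itself is not a ratio of molecules, since the probes differ.

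**Figure D4:**
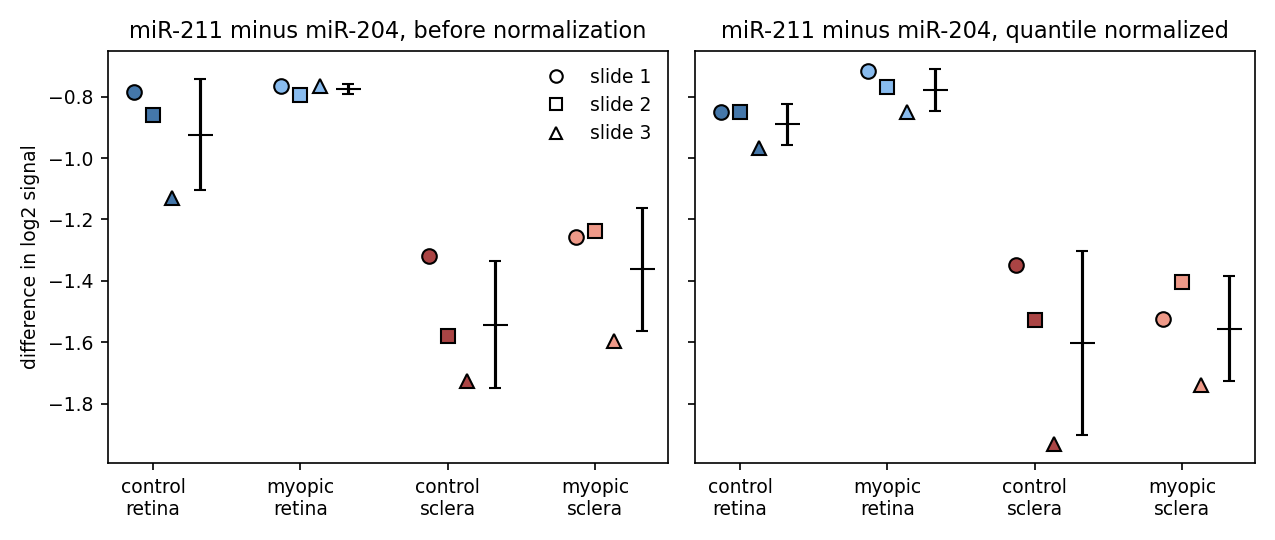
Difference in log2 signal, mmu-miR-211-5p minus mmu-miR-204-5p, on each array before normalization (left) and after quantile normalization (right). Symbols mark the slide and bars the mean ± SD of 3 arrays. All 6 retina arrays lie above all 6 sclera arrays in both panels.

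The tissue differences of the members were set beside those of cell-type marker miRNAs. All 7 neural retina miRNAs were called higher in the retina in control and in myopic eyes, with a median log2 difference of 4.22 in control eyes against 0.30 over all 443 miRNAs tested. They ranged from 3.73 for miR-9-3p to 7.67 for miR-129-5p, the latter detected on 2 of 3 control sclera arrays, so that its size rests in part on the floor. In both kinds of eye the members lay below all 7.

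In the other lists most miRNAs were lower in the retina. Over all 443 miRNAs tested, 23% were called lower in the retina in control eyes and 26.4% in myopic eyes. All 6 fibroblast and mesenchyme miRNAs were called lower in both kinds of eye, with a median log2 difference of -7.84 in control eyes. They ranged from -3.13 for miR-143-3p to -11.00 for miR-214-3p, which was undetected on the retina arrays, so that its size is set by the floor. All 4 muscle miRNAs and both endothelial miRNAs were called lower in both kinds of eye. However, in myopic eyes miR-206-3p of muscle was higher in the retina by 0.74 without normalization, by 0.40 with quantile normalization within tissues and by 0.37 with normexp background correction. The endothelial miRNAs stayed lower but fell short of a 2-fold difference without normalization and with quantile normalization within tissues. Without normalization they differed by -0.77 and -0.57 in control eyes and by -0.44 and -0.41 in myopic eyes. Within tissues they differed by -0.79 and -0.07 in control eyes and by -0.94 and -0.51 in myopic eyes. With normexp background correction miR-126-5p also fell short (-0.17 in control and -0.19 in myopic eyes). Of the blood list 3 of 4 tested members were called lower, and of the surface epithelium and lens list 2 of 3, again in both kinds of eye. Some of these differences were no larger in size than that of miR-211, such as -1.55 for miR-126-3p of endothelium in myopic eyes.

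Other miRNAs linked to pigmented epithelium did not share the direction of miR-204 and miR-211. Of 6 listed, 5 were tested. All 5 had lower values in the retina in control and in myopic eyes, and 4 of them were called lower in both, with a median of -3.42 over the 5 in control eyes. They stayed lower under the other scalings, signals and floors tried, but the size varied. With normexp background correction they lay between -0.87 and -0.11 in control eyes and between -1.96 and -0.11 in myopic eyes. miR-200a-3p, also a miRNA of other epithelia, was detected on all sclera arrays and on no retina array, so that the size of its difference (-8.32) is set by the floor. miR-221-3p, which is also found in vessels, differed by -2.21, and by -0.76 without normalization. miR-184-3p, a miRNA of cornea and lens as well, differed by -2.23 (limma adjusted p = 0.18) and was not called. miR-187-3p was undetected on every array. The log2 of the summed level of this list was 6.32 to 11.83 in the control retina and 8.67 to 8.89 in the myopic retina. It was 11.25 to 12.97 in the control sclera and 10.24 to 12.56 in the myopic sclera. miR-184-3p had the highest mean of its members in every group and also stands in the surface epithelium and lens list, whose sums were 6.03 to 11.81, 8.62 to 8.84, 11.22 to 13.02 and 10.09 to 12.57 in the same order, so the level of this list is not specific to pigmented cells. In the sclera 0 miRNAs of the 7 lists were called between myopic and control eyes, and in the retina 1 was, miR-145-5p of the fibroblast list, which fell. It lay at the floor in the myopic retina, so that the size of its fall is set by the floor.

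**Figure D5:**
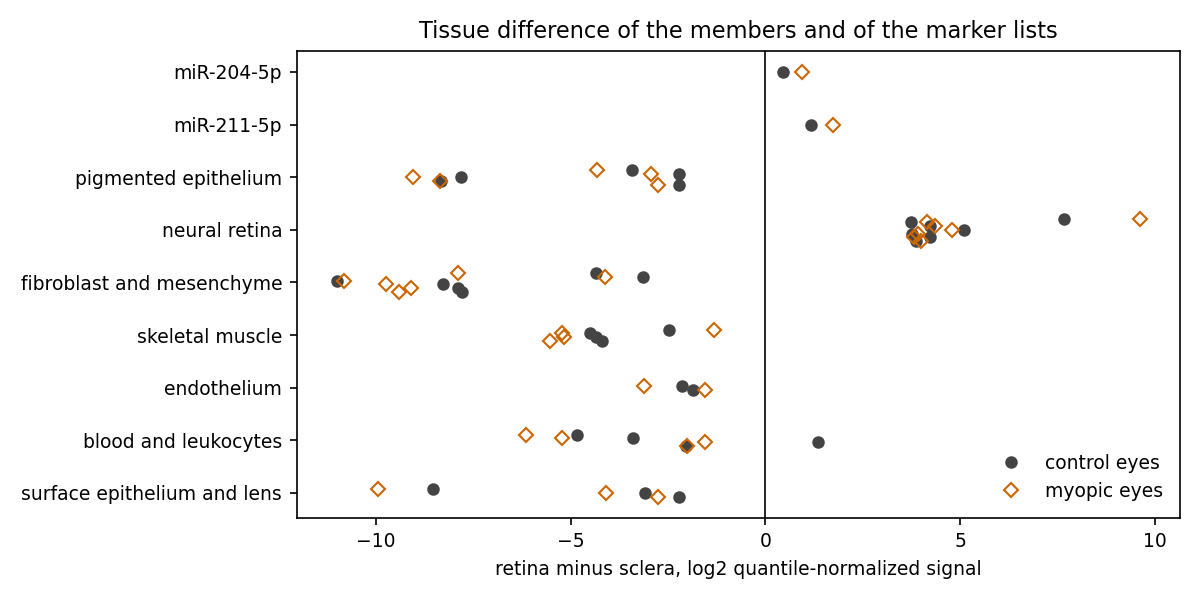
Retina minus sclera difference in log2 quantile-normalized signal of the members and of each tested miRNA of the marker lists, in control eyes (filled circles) and myopic eyes (open diamonds). miR-204 and miR-211 lie between 0 and 2, neural retina miRNAs above 3 and fibroblast miRNAs below -3.

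The miRNAs whose pattern over the 12 arrays was most like that of each member were found among the 246 detected on all arrays. The 12 arrays fall into the tissues and share slides, and the part of either in the likeness was not tested. For miR-211 they were miR-30c-5p (Pearson's r = 0.989), miR-181a-1-3p (0.986), miR-107-3p (0.974), miR-342-3p (0.972) and miR-92a-3p (0.971). For miR-204 they were miR-1839-3p (0.894), miR-211-5p (0.878), miR-103-3p (0.870), miR-1944_v16.0 (0.854) and miR-30c-5p (0.842). miR-211 was thus the second most similar miRNA to miR-204, whereas miR-204 was not among the 5 most similar to miR-211. Between the members r was 0.639 over the 6 retina arrays and 0.951 over the 6 sclera arrays.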

How the data were processed

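The authors deposited the Agilent scanner output of each array, whose values are fluorescence intensity without normalization between arrays. Per the file headers it was made with Feature Extraction 11.0.1.1, whereas the methods name another version. A miRNA with no detected probe is listed at 0.1. A second deposited table holds the authors' log2 values, made with Partek 6.6 per the labels. These had a correlation of 0.999 with the log2 values computed here over 437 miRNAs, with a column median of 5.74 on every array, and served as an alternative.

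Total gene signals were set to at least 0.5, quantile normalized over 12 arrays with all 696 names, and log2 values were taken. The fit held all 4 groups and used lmFit and eBayes of limma 3.58.1 (R 4.3.3), after a check on simulated data. The simulation gave a miRNA the same spread in every group, so it cannot show the effect of unequal spreads. Intervals are 95% intervals and rest on a spread shared by all 4 groups. The number of arrays limits the precision. Samples were grouped by their labels, and no 2 arrays held identical values. Plots used matplotlib 3.10.9 and numpy 2.4.6 under Python 3.11.15.

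The members and marker lists were chosen with earlier results of these data known. Named miRNAs were the members, the 5 most correlated with each, and list members, at most 4 a list and among them the largest and smallest tissue difference. The labels give the same mouse number to the control and myopic eye, which is also the slide. Deviations from the group means of same-numbered arrays correlated at 0.38, -0.46 and 0.59 in the retina and at -0.14, -0.16 and -0.00 in the sclera. Alternatives were other scalings, signals, floors, filters, models, single probes, the replicate block and leaving out each array.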

Additional observations from a re-analysis of the deposited data

How the results depend on the processing

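Under the 75th percentile of all probes, the log2 tissue difference of miR-204 in myopic eyes was -0.073, those of miR-211 were 0.92 in control and 0.51 in myopic eyes and no longer called, and the retina change minus the sclera change was -0.38 for miR-204 and -0.41 for miR-211. The tissue difference of miR-204 became a call in myopic eyes with the 75th percentile of the miRNAs detected on all arrays (1.11), no normalization (2.30), quantile normalization within tissues (2.15), the processed spot signal (1.01), the authors' log2 values (1.06) and its 19-base probe alone (1.101). In control eyes it became one with no normalization (1.74) and within tissues (1.70). With the 19-base probe alone miR-211 gave 0.64 in control and 0.74 in myopic eyes, not called. Its retina change was positive with no normalization (0.065), the processed spot signal (0.0233), normexp background correction (0.0233) and the 21-base probe (0.067). The cause was not tested.

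With 1 array left out, the retina change ranged from -0.21 to -0.11 for miR-204 and from -0.05 to -0.01 for miR-211, and the sclera change from -0.87 to -0.33 and from -0.73 to -0.45. The tissue difference ranged from 0.23 to 0.77 in control and from 0.80 to 1.18 in myopic eyes for miR-204, and from 1.07 to 1.30 and from 1.68 to 1.86 for miR-211. The difference of the changes ranged from 0.19 to 0.74 and from 0.42 to 0.70, and the contrast of miR-211 with miR-204 from 0.67 to 0.79.

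Slide and replicate number as a replicate block changed no call of either miRNA. The contrast of miR-211 with miR-204 stayed at 0.744 with the replicate block of 3 sets, where p could not fall below 0.25 (exact permutation test). With the block, the adjusted p (limma) of the sclera change of miR-211 was 0.83 and of its tissue difference in control eyes 2.8e-04. Over the alternatives 0 to 146 miRNAs were called in the retina (1 as reported; 146 with array weights), 0 to 1 in the sclera (0), 65 to 286 between control tissues (224), 95 to 308 between myopic tissues (261) and 0 to 156 for the difference of the changes (1). Of the calls between control tissues 122 were higher and 102 lower in the retina as reported, and 224 and 44 without normalization. Between myopic tissues they were 144 and 117 as reported, and 266 and 42 without normalization.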
